A study of Mus musculus with 5 samples.

Results

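Potassium channel genes were taken as every gene whose symbol in the array's annotation begins with Kcn, a class letter or letters, and a number. The rule found 84 of the 18193 genes that a probe set names alone, measured by 167 of the 45101 probe sets on each array. Of these, 81 encode channels or their subunits, and the other 3 (Kcnq1ot1, Kcnmb4os1 and Kcnmb4os2) are non-coding RNAs that carry a channel's name. The 81 genes fell into 31 voltage-gated (Kv), 15 inward rectifier (Kir), 12 two-pore (K2P) and 8 calcium- or sodium-activated (KCa) channel genes and 15 genes of auxiliary subunits. The tissue was optic nerve of C57BL/6 mice at P35 to P45, kept for 3 days in organotypic culture with LY294002, an inhibitor of phosphatidylinositol 3-kinase. The lower dose (L-LY29, 0.5 µM by the labels, 3 arrays) was set against the higher dose (H-LY29, 50 µM, 2 arrays), so both groups had received the inhibitor. The methods give a higher L-LY29 concentration for adult nerves than the labels, and which was used was not settled. Treatment entries spell the compound LY295002 and titles LY294002, taken here as one agent. Untreated cultures are not analysed here, so no difference below is a difference from control nerve.

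Potassium channels let potassium leave or enter a cell and so hold its membrane potential near the resting level. In white matter, astrocytes and oligodendrocytes carry Kir and K2P channels that keep the glial potential negative and take up the potassium that firing axons release. Kv channels repolarise axons and lie beneath the myelin beside the nodes of Ranvier, KCa channels couple calcium to the membrane potential, and ATP-sensitive Kir channels couple metabolism to it. Auxiliary subunits set where these channels sit and how fast they open and close. The paper describes the optic nerve as free of neuronal nuclei and its RNA as glial. Roles in axons or neurons named below are therefore background, and which cells the channel RNA came from was not tested.

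Signals are given on the log2 scale of the deposited table, and every difference is L-LY29 minus H-LY29 in log2 units. The median signal of an array was 5.33 to 5.35 in L-LY29, against 5.54 to 5.56 in H-LY29. Arrays of a dose correlated at 0.990 to 0.995 over all probe sets and arrays of different doses at 0.882 to 0.892, and over the 167 potassium channel probe sets the values were 0.977 to 0.988 and 0.787 to 0.813. Bacterial poly-A control probe sets averaged 9.97 to 10.45 on L-LY29 arrays and 3.17 on H-LY29 arrays. The 3′ minus 5′ signal of the actin control was 0.39 to 0.48 in L-LY29, against 0.84 to 0.99 in H-LY29. Both control readings split fully with dose on these arrays. Labelling or RNA quality thus cannot be told apart from dose in any channel difference, and their part was not tested. Between 15520 and 15967 probe sets of each L-LY29 array, and 8335 to 8448 of each H-LY29 array, held a value that at least 10 probe sets of that array shared to the last digit. Of the 159 probe sets of channel and subunit genes, 151 held such a shared value on at least 1 array. Where replicates below are equal, their spread is therefore not that of independent measurements.

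Many potassium channel genes gave signals near background. The level used here was 4.14, the highest mean among poly-A control probe sets on H-LY29 arrays and trpn control probe sets at both doses. These controls gave little signal there, while the poly-A sets were bright on L-LY29 arrays and were not used there. The level was applied to both doses, although their array medians differed. By it, 15 of the 81 genes were near background at both doses on every probe set: 7 Kv genes (Kcnc2, Kcng1, Kcnh5, Kcnh8, Kcns2, Kcnv1 and Kcnv2), 4 Kir genes (Kcnj2, Kcnj5, Kcnj14 and Kcnj15), the K2P gene Kcnk15, and the subunit genes Kcne1, Kcne2 and Kcnmb1. A further 4 (Kcna4, Kcna5, Kcnab3 and Kcnt2) were near background in L-LY29 alone and 8 (Kcna7, Kcng4, Kcnj1, Kcnk4, Kcnk7, Kcnk16, Kcnq1 and Kcnt1) in H-LY29 alone. The remaining 54 were above it at both doses on at least 1 probe set at each dose. With the 40th percentile of all probe sets, 4.77, as the level in its place, 28 of the 81 genes were under it at both doses. A signal near background bounds the level only from above, so the size of a difference against it is not read as a fold.

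**Figure D1:**
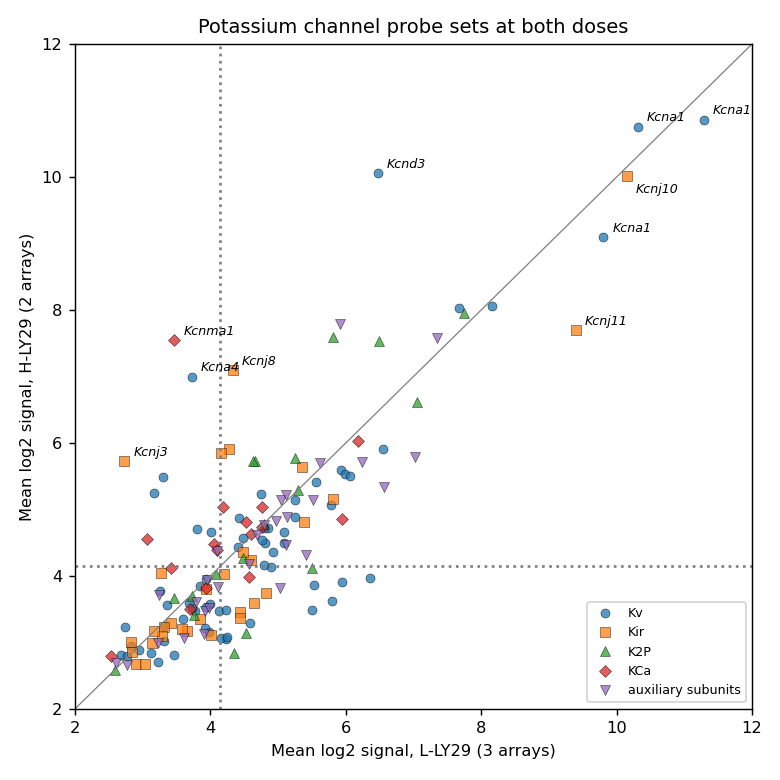
Mean log2 signal of each of the 159 channel and subunit probe sets in L-LY29 (horizontal axis, 3 arrays) and H-LY29 (vertical axis, 2 arrays), by class. The solid line marks equal signal and the dotted lines the near-background level of 4.14, and 58 probe sets lie under it at both doses. Labels mark probe sets that differ by over 2.5 log2 units or exceed 9 in L-LY29.

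Genes were tested where their brightest probe set passed the 40th percentile, which 44 of the 81 did. The 44 split into 15 higher in L-LY29, 12 lower and 17 not passing. That is 61.4% called, against 73.8% of all 12935 genes tested. The 15 higher genes are 34.1% of those tested, against 27.1% of all genes, and the 12 lower genes are 27.3%, against 46.6%. The arrays of the doses did not overlap for 35 of the 44 (79.5%), against 83.1% of all genes. The median difference was 0.15 over the 44 genes and -0.26 over all genes tested. Scaling moved this split: after quantile normalization, or with array medians made equal, 22 channel genes were higher and 8 lower, and the share of higher genes among those called was 73.3% in place of 55.6%. Among all genes called, that share also rose, from 36.8% to 52.1% after quantile normalization and 47.2% with equal array medians. Those scalings put the median of all genes at 0.06 and -0.05 and that of the channel genes at 0.38 and 0.36. A gene that passed the filter only through the dose in which it is high had to differ, so its call is no support for a direction. This holds for 11 of the 44, which averaged under 4.77 at 1 dose: Kcna4, Kcnj8, Kcnj12, Kcnj16, Kcnn2 and Kcns3 in L-LY29, of which 5 were called lower, and Kcna3, Kcna7, Kcnk7, Kcnmb2 and Kcnq1 in H-LY29, all 5 called higher. Their values are given below as a description. Of the other 33 genes, 10 were higher, 7 lower and 16 did not pass. The same split was not made for all genes, so these counts have no matching share to be read against.

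Without the filter, the 81 genes split into 28 higher, 18 lower and 35 not passing, where 64.7% of all 18193 genes were called, 29.1% higher and 35.6% lower. By probe set, 59 of 159 passed the filter, of which 22 were higher, 16 lower and 21 did not pass. The background among all probe sets tested was 72.8% called, 29% higher and 43.7% lower. In a whole nerve, fewer cells of a type and less RNA per cell cannot be told apart in any of these differences.

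**Figure D2:**
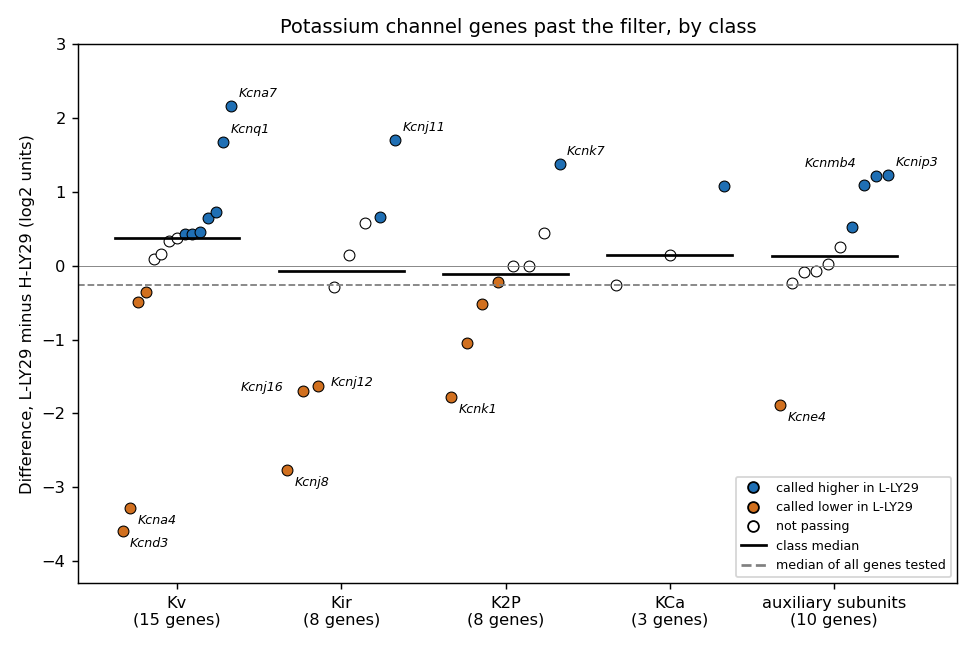
Difference in log2 signal, L-LY29 minus H-LY29, of the 44 channel and subunit genes past the filter, by class (brightest probe set per gene). Filled points passed the test, short bars are class medians and the dashed line is the median of all genes tested, -0.26. The lowest points are Kcnd3 and Kcna4 and the highest is Kcna7, all of the Kv class.

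Kir genes split widely. Of 15, 8 were tested, 2 of them higher in L-LY29, 3 lower and 3 not passing (62.5% called, against 73.8% of all genes), with a median difference of -0.07 that turned to 0.37 after quantile normalization and 0.14 with equal array medians. Kcnj10 encodes Kir4.1, the main resting potassium conductance of astrocytes, which oligodendrocytes also carry. Its signal was 10.21, 10.12 and 10.12 on the L-LY29 arrays, against 10.10 and 9.91 on the H-LY29 arrays. Every L-LY29 array was above both H-LY29 arrays, but by little: the difference was 0.15, its 95% interval ran from -0.05 to 0.35, and it did not pass (adjusted p = 0.147). It did pass after quantile normalization (0.37, adjusted p = 0.0093), with equal array medians (0.36, adjusted p = 0.0080) and without H-LY29 replicate 1 (0.24, adjusted p = 0.042). In the same arrays, the 10 astrocyte markers split into 5 lower in L-LY29, 1 higher and 4 not passing, and the mean over the list was 8.66 to 9.31 in L-LY29, against 10.39 to 10.58 in H-LY29. All 8 oligodendrocyte markers measured were called, 5 higher and 3 lower, with list means of 12.49 to 12.57 in L-LY29, against 12.34 to 12.52 in H-LY29.

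Kcnj16 encodes Kir5.1, which joins Kir4.1 in astrocytes to form a channel that is more sensitive to pH. Its brighter probe set read 4.53, 4.12 and 3.80 in L-LY29, against 6.09 and 5.61 in H-LY29. The doses did not overlap, and the L-LY29 mean lay just above the near-background level. The difference was -1.70 (SE 0.27, adjusted p = 0.0031), in a gene that passed the filter only through H-LY29. The second Kcnj16 probe set, under the filter, ran the other way, at 4.60, 4.62 and 4.68 in L-LY29 and 3.61 and 3.55 in H-LY29.

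Kcnj8 and Kcnj11 encode Kir6.1 and Kir6.2, the pore subunits of ATP-sensitive channels. Kir6.1 is typical of pericytes and vascular smooth muscle, and Kir6.2 of neurons and endocrine cells. Kcnj8 read 3.96, 4.22 and 4.81 in L-LY29, against 7.25 and 6.93 in H-LY29, a difference of -2.76 (SE 0.28, adjusted p = 6.4e-04), and passed the filter only through H-LY29. Kcnj11 read 9.31, 9.44 and 9.44 in L-LY29, against 7.58 and 7.80 in H-LY29, a difference of 1.71 (SE 0.10, adjusted p = 1.2e-04), and was above the filter at both doses. The doses did not overlap for either gene. Neither probe set held a shared value on any array, and a second Kcnj11 probe set, at 4.21 on all 3 L-LY29 arrays and 3.94 and 4.13 in H-LY29, was under the filter. Abcc9, the sulphonylurea receptor that partners Kir6.1, also fell, with 5.23, 4.92 and 5.30 in L-LY29 against 6.48 and 7.69 in H-LY29 (difference -1.94, adjusted p = 0.0071). It was named after its values were seen. Abcc8, the receptor that partners Kir6.2 in neurons, was near background at both doses.

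Markers of the cells that typically carry Kir6.1 were mixed. Of 8 pericyte and smooth muscle markers, 7 were tested and 4 called, 3 of them lower in L-LY29 (Pdgfrb -3.97, Vtn -1.98 and Notch3 -0.97) and 1 higher (Des 1.30). Rgs5 (0.01), Acta2 (1.08) and Tagln (-0.95) did not pass, and the smooth muscle myosin Myh11 was near background at both doses. The list mean was 6.86 to 7.17 in L-LY29, against 7.56 to 7.77 in H-LY29. All 7 fibroblast markers were lower, with list means of 7.85 to 8.46 in L-LY29, against 10.43 to 10.88 in H-LY29. The part of these cells in the Kcnj8 difference was not tested.

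Other Kir genes were dimmer. Kcnj12 encodes Kir2.2, a strong inward rectifier of muscle and brain. It read 4.19, 4.26 and 4.39 in L-LY29 and 6.32 and 5.50 in H-LY29, a difference of -1.63 (SE 0.26, adjusted p = 0.0032), and passed the filter only through H-LY29. Kcnj6, for a G-protein-gated channel of neurons, was higher by 0.66 (6.01, 5.70 and 5.71 in L-LY29, 5.18 and 5.11 in H-LY29, adjusted p = 0.0075), a call lost without H-LY29 replicate 2 (adjusted p = 0.060). Kcnj13 and Kcnj4 did not pass, with differences of 0.58 and -0.28. Kcnj2, which encodes Kir2.1, stayed near background throughout, with means of 2.84 in L-LY29 and 2.86 in H-LY29. Kcnj3, for another G-protein-gated pore, did not reach the filter and its probe sets disagreed: the brightest read 4.80 to 4.86 in L-LY29, against 3.61 to 3.86 in H-LY29, and another 2.67 to 2.76 in L-LY29, against 5.52 to 5.93 in H-LY29.

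**Figure D3:**
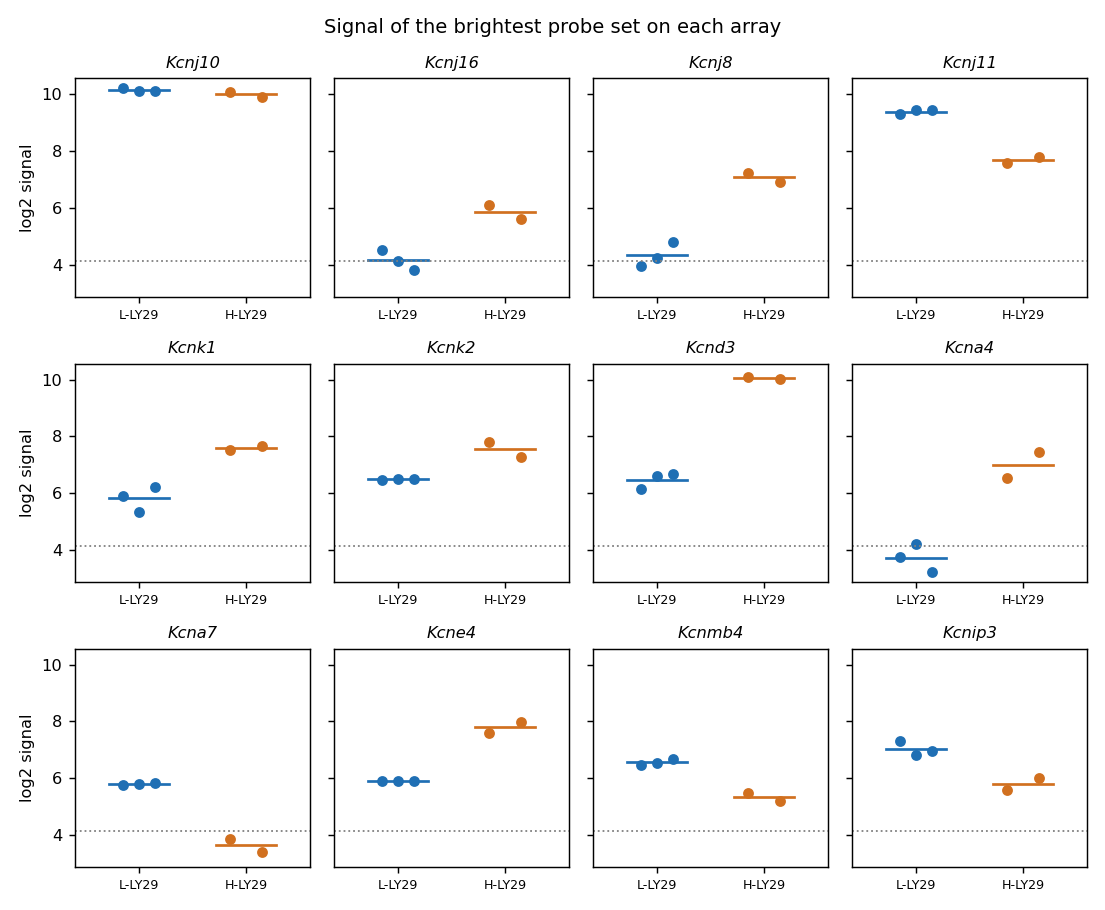
Log2 signal of 12 channel and subunit genes on each array (points; L-LY29 left, 3 arrays; H-LY29 right, 2 arrays), with the mean of each dose as a bar and the near-background level of 4.14 dotted. Kcnj10 differs by 0.15, while Kcnj8 (-2.76), Kcnd3 (-3.59), Kcnj11 (1.71) and Kcna7 (2.16) show doses that lie well apart.

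K2P channels carry the leak conductance of many cells. Of 12 K2P genes, 8 were tested, 1 of them higher in L-LY29, 4 lower and 3 not passing (62.5% called, against 73.8% of all genes), and the median difference of -0.11 turned to 0.08 after quantile normalization and 0.10 with equal array medians. Kcnk1 (TWIK-1) and Kcnk2 (TREK-1) encode leak channels known in astrocytes. Kcnk1 read 5.91, 5.33 and 6.20 in L-LY29, against 7.51 and 7.66 in H-LY29, a difference of -1.78 (SE 0.27, adjusted p = 0.0028). Its second probe set, under the filter level in L-LY29, gave -1.07, while without H-LY29 replicate 2 the gene's adjusted p was 0.052. Kcnk2 read 6.46, 6.51 and 6.51 in L-LY29, against 7.82 and 7.26 in H-LY29, a difference of -1.05 (SE 0.18, adjusted p = 0.0043). Both fell without overlap between the doses. The astrocyte list given above had a lower mean in L-LY29. Of its 10 markers 5 were called lower, 1 higher and 4 did not pass, where 46.6% of all genes were called lower. The part of astrocytes in the Kcnk1 and Kcnk2 differences was not tested.

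The remaining K2P genes differed by less or were dim. Kcnk13 (THIK-1), the resting channel of microglia, read 7.74, 7.79 and 7.69 in L-LY29 and 7.95 and 7.96 in H-LY29. Its difference of -0.22 only just passed (adjusted p = 0.048), turned to 0.29 after quantile normalization and was -0.01 with equal array medians, so it has no stable sign. Over the same arrays 7 of 8 microglia markers were higher in L-LY29 and 1, Tmem119, was lower, with list means of 9.01 to 9.13 in L-LY29, against 7.74 to 8.02 in H-LY29. Kcnk6 (TWIK-2), which microglia also carry, read 7.30, 6.92 and 6.92 in L-LY29 and 6.78 and 6.44 in H-LY29, and its difference of 0.44 did not pass (95% interval -0.02 to 0.90, adjusted p = 0.076). It did pass after quantile normalization (0.93) and with equal array medians (0.65). Kcnk5, an acid-sensitive channel, was lower by a difference of -0.52 (adjusted p = 0.025), and this call was lost under both scalings. Kcnk7 was higher by 1.37 (5.60, 5.15 and 5.74 in L-LY29, 4.12 on both H-LY29 arrays, which is near background). Kcnk10 held 4.79 on all 5 arrays, a shared value, and so carries no information on the dose. The brightest probe set of Kcnk3, an acid-sensitive leak channel of neurons, differed by 0.00 (95% interval -0.24 to 0.24), while another, under the filter level in L-LY29, differed by -1.09 (4.47, 4.71 and 4.71 in L-LY29, 5.85 and 5.60 in H-LY29). Kcnk4, for the mechanically gated channel TRAAK, which is found at nodes of Ranvier, was under the filter, with means of 4.53 in L-LY29 and 3.13 in H-LY29.

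By brightest probe set, Kv genes held the highest signals of the family and its largest differences in both directions. Of 31, 15 were tested, 7 of them higher in L-LY29, 4 lower and 4 not passing (73.3% called, against 73.8% of all genes), with a median difference of 0.37. Kcna1, Kcna2 and Kcna6 encode channels of the juxtaparanode, the stretch of axon under the myelin next to the paranode. Of the 4 Kcna1 probe sets, 3 read above 9 on every array, and these 3 were called but did not go the same way. The brightest read 11.34, 11.32 and 11.19 in L-LY29 and 10.80 and 10.92 in H-LY29 (difference 0.42, adjusted p = 0.0038). Another read 9.94, 9.80 and 9.66 in L-LY29 and 9.08 and 9.10 in H-LY29 (difference 0.71). The third read 10.36, 10.24 and 10.33 in L-LY29 and 10.68 and 10.82 in H-LY29 (difference -0.44). No single direction can thus be given for Kcna1.

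The other Kcna genes of axons and glia were dimmer. Kcna6 read 7.74, 7.64 and 7.65 in L-LY29 and 8.02 and 8.03 in H-LY29. Its difference of -0.35 (adjusted p = 0.010) turned to 0.16 after quantile normalization, and its other tested probe sets gave 0.11 and 0.14 and did not pass. Kcna2 did not reach the filter and its probe sets disagreed: the brightest averaged 4.01 in L-LY29, against 4.66 in H-LY29, while another averaged 4.58 in L-LY29, against 3.29 in H-LY29 (difference 1.29). Kcna3, known in microglia and T cells, passed the filter only through L-LY29 and was higher by 0.43 (5.04, 5.28 and 4.93 in L-LY29, 4.71 and 4.60 in H-LY29, adjusted p = 0.037), a call lost when L-LY29 replicate 1 or 2 or either H-LY29 array was left out. Kcna5, a Kv gene of microglia and smooth muscle, was under the filter and near background in L-LY29, with 3.17, 3.07 and 3.25, against 5.50 and 5.00 in H-LY29.

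Kcna4 and Kcnd3 encode pores of transient A-type currents, which set how soon a cell can fire again. Kcnd3 showed, by brightest probe set, the largest difference of the tested genes of the family: 6.15, 6.59 and 6.68 in L-LY29, against 10.08 and 10.04 in H-LY29, or -3.59 (SE 0.18, adjusted p = 8.7e-05). It rests on 1 probe set alone. The other 3 Kcnd3 probe sets were under the filter and gave differences of -0.02, 0.74 and -0.20. Kcna4 read 3.74, 4.21 and 3.22 in L-LY29, near background, against 6.53 and 7.46 in H-LY29, a difference of -3.27 (SE 0.40, adjusted p = 0.0012), while its second probe set was at or under 3.82 on every array. Kcnd2, which encodes another A-type pore, was under the filter with means of 4.79 in L-LY29 and 4.71 in H-LY29.

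The Kv genes that were higher in L-LY29 were mostly dim ones. Kcna7, a Kv1 gene of muscle, read 5.76, 5.79 and 5.82 in L-LY29, against 3.84 and 3.41 in H-LY29 (difference 2.16, SE 0.15, adjusted p = 1.9e-04). Kcnq1, whose channel carries the slow repolarising current of the heart and serves many epithelia, read 5.50, 5.60 and 5.50 in L-LY29, against 3.64 and 4.09 in H-LY29 (difference 1.67, adjusted p = 5.0e-04). Both were near background in H-LY29 and passed the filter only through L-LY29. The value of Kcnq1 on L-LY29 replicates 1 and 3 was a shared one. Of 8 ocular surface epithelium markers 7 were higher in L-LY29, with list means of 8.37 to 10.93 in L-LY29, highest on replicate 1 and lowest on replicate 2, against 4.14 to 4.41 in H-LY29. The part of those cells in the Kcnq1 and Kcna7 differences was not tested.

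Among the other Kv genes, Kcnc4, a Kv3 gene, was higher by 0.73 (adjusted p = 0.0069). Its second probe set, under the filter level in H-LY29, differed by 0.59. Kcnc1, of the same subfamily, did not pass (0.34, 95% interval -0.04 to 0.71). Kcnh3 and Kcnh1, ether-a-go-go-type channels of neurons, were higher by 0.64 (adjusted p = 0.024) and 0.45 (adjusted p = 0.021). A pair of further Kcnh3 probe sets was near background in H-LY29 and passed the filter only through L-LY29, with means of 6.36 and 5.95 in L-LY29 and of 3.96 and 3.90 in H-LY29. Kcnq3, part of the M-current pore at axon initial segments and nodes, read 8.17, 8.14 and 8.14 in L-LY29 and 8.06 and 8.07 in H-LY29. Its difference of 0.09 did not pass (95% interval -0.09 to 0.26), though a dimmer probe set was higher by 0.56. Kcnq5, another M-current gene, was under the filter with means of 3.30 in L-LY29 and 5.49 in H-LY29. Kcns3, a silent subunit that modifies Kv2 channels, was lower by a difference of -0.49 (adjusted p = 0.027), with 4.74 on all 3 L-LY29 arrays, under the filter level, and the call was lost when any 1 of those was left out and with equal array medians. Kcnd1, of the A-type pores, and Kcnh2, of the ether-a-go-go type, did not pass (0.16 and 0.37).

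KCa genes were few above the filter. Of 8, 3 were tested, 1 of them higher and 2 not passing (33.3% called, against 73.8% of all genes). Kcnma1 encodes the pore of the BK channel of large conductance, found in smooth muscle, neurons and glia, and its probe sets conflicted. The brightest read 5.92, 5.97 and 5.92 in L-LY29 and 4.68 and 5.02 in H-LY29, a difference of 1.08 (adjusted p = 0.0011). A second read 3.90, 3.21 and 3.28 in L-LY29 and 7.64 and 7.46 in H-LY29, a difference of -4.08 (SE 0.24, adjusted p = 1.1e-04), and passed the filter only through H-LY29, since it was near background in L-LY29. This second set stands for the gene when L-LY29 replicate 2 or 3 is left out, which turns the gene's difference to -3.96 or -3.99. The remaining 3 sets were under the filter and gave -0.44, -0.71 and -0.26. Whether they read different transcripts was not tested, and no direction is given for Kcnma1. Kcnn4, the intermediate-conductance channel of microglia and endothelium, held 6.17 on all 3 L-LY29 arrays, against 6.10 and 5.94 in H-LY29, and did not pass (0.15, 95% interval -0.10 to 0.39). Kcnn2, a small-conductance channel of neurons, did not pass either (-0.27), and Kcnn3, of the same kind, was under the filter with means of 4.76 in L-LY29 and 4.74 in H-LY29.

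**Figure D4:**
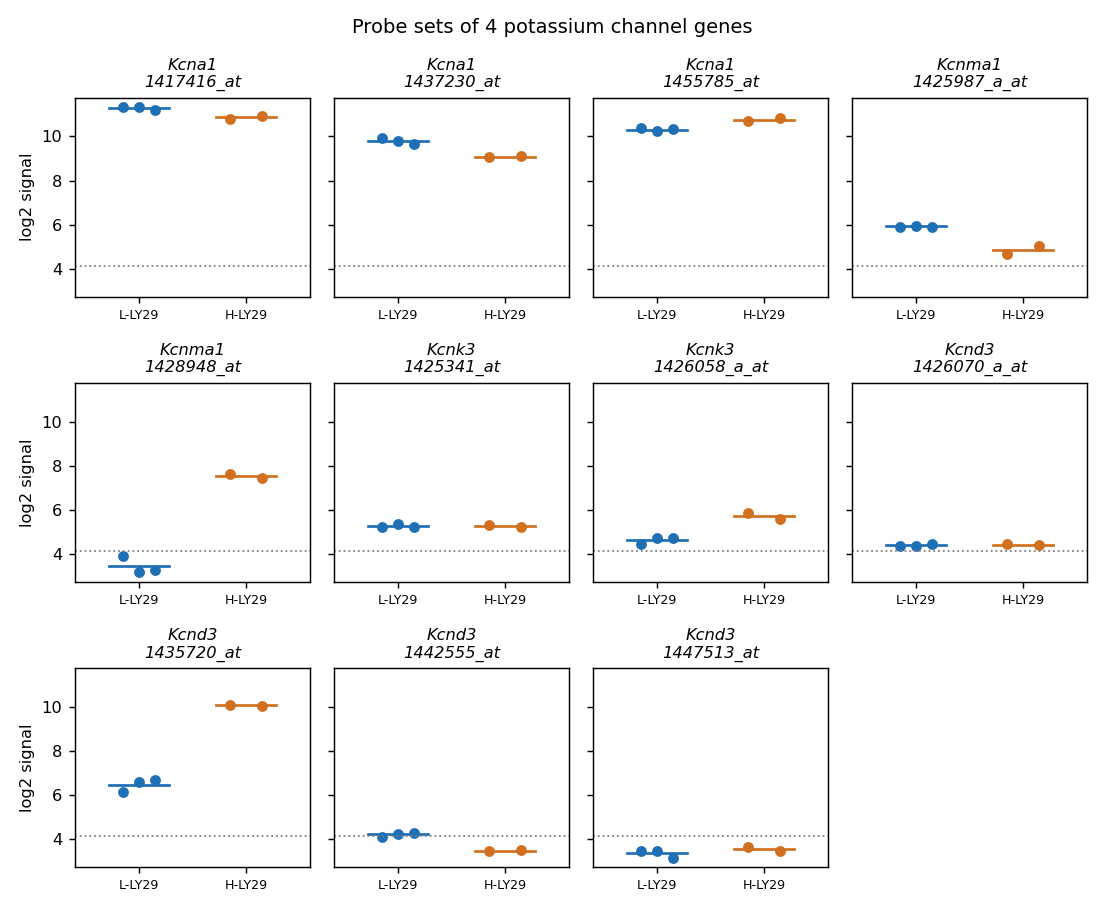
Log2 signal on each array (points; L-LY29 left, H-LY29 right; bars are dose means) for the probe sets past the filter of Kcna1, Kcnma1 and Kcnk3 and for all 4 probe sets of Kcnd3, with the near-background level dotted. The called Kcna1 sets differ by 0.42, 0.71 and -0.44, the Kcnma1 sets by 1.08 and -4.08, and only 1 Kcnd3 set shows the difference of -3.59.

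Disagreement of this kind was common on these arrays. Where a channel or subunit gene had 2 or more called probe sets, they went in both directions for 2 of 6 genes (33.3%), against 1817 of 4197 (43.3%) among all genes. Probe sets of other members disagreed without being called both ways, among them Kcna2, Kcnj3, Kcnj16, Kcnk3 and Kcnq5.

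Of the 15 genes of auxiliary subunits 10 were tested, 4 of them higher in L-LY29, 1 lower and 5 not passing (50% called, against 73.8% of all genes), with a median difference of 0.14. The family holds subunits of BK channels, of Kv4 channels and of Kv1 and KCNQ channels. Kcnmb4, the beta4 subunit of neurons and glia that slows BK channels, read 6.47, 6.54 and 6.66 in L-LY29, against 5.48 and 5.21 in H-LY29 (difference 1.21, SE 0.13, adjusted p = 7.2e-04). Kcnmb2, a subunit that inactivates BK channels, read 5.22, 5.50 and 5.50 in L-LY29, against 4.39 and 4.24 in H-LY29 (difference 1.09, adjusted p = 0.0011). Neither overlapped between the doses, and Kcnmb2 passed the filter only through L-LY29. Kcnmb1, the smooth muscle subunit, was near background at both doses with means of 3.91 in L-LY29 and 3.13 in H-LY29.

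Kcnip3 and Kcnip1 encode calcium-binding proteins that attach to A-type Kv4 pores such as that of Kcnd3. Kcnip3 read 7.30, 6.80 and 6.96 in L-LY29, against 5.58 and 6.00 in H-LY29 (difference 1.23, SE 0.21, adjusted p = 0.0039), and its second probe set was higher by 0.37. Kcnip1 was higher by 0.53 on its brightest probe set (adjusted p = 0.0054), while its other tested sets gave -0.10 and 0.14 and did not pass. Kcnip3 and Kcnip1 were thus higher at the dose where the only tested Kcnd3 probe set was lower. Kcne4, a subunit that silences some Kv1 and KCNQ channels, read 5.91 on all 3 L-LY29 arrays, a shared value, against 7.59 and 8.00 in H-LY29 (difference -1.88, SE 0.14, adjusted p = 2.4e-04). Kcnab1 and Kcnab2, the cytoplasmic beta subunits of Kv1 channels, did not pass (-0.09 and -0.07), and the second Kcnab2 probe set, under the filter level in H-LY29, differed by 0.66. Kcne3 was the most variable tested member, at 6.41, 7.78 and 7.86 in L-LY29 and 7.55 and 7.61 in H-LY29. Its doses overlapped, and its 95% interval ran from -1.48 to 1.01. Kcne1l and Kcnip4 did not pass either (0.03 and 0.25).

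The 37 channel and subunit genes under the filter (16 Kv, 7 Kir, 4 K2P, 5 KCa and 5 auxiliary) reached dose means of at most 5.49 on their brightest probe sets, that of Kcnq5 in H-LY29. Tested without the filter on those probe sets, 13 of them were higher in L-LY29, 6 lower and 18 did not pass. Among all 18193 genes tested without a filter, bright ones included, 64.7% were called, 29.1% higher and 35.6% lower. On the brightest probe sets the differences ran from -2.20 for Kcnq5 to 1.51 for Kcnk16, a K2P gene of pancreas that was near background in H-LY29. A dimmer Kcnj3 probe set, given above, went lower still (-3.00). Kcnt2, a sodium-activated channel gene, gave the lowest difference of the KCa class under the filter (-1.48), with 2.79, 3.21 and 3.21 in L-LY29, near background, against 5.25 and 3.85 in H-LY29. In each of these extremes 1 dose was near background, so the sizes are not read as folds.

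The non-coding Kcnq1ot1, an antisense transcript of the imprinted Kcnq1 locus that does not encode a channel, read 5.71, 6.41 and 6.12 in L-LY29, against 7.15 and 7.58 in H-LY29 (difference -1.29, adjusted p = 0.0069). A second tested probe set differed by -0.03 and did not pass. Kcnq1 itself, given above, was higher, and whether the probe sets of either read the other strand was not tested.

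Partners that bind or anchor potassium channels but carry other names were read from a list of 23 genes, of which 18 were on the array and 13 tested. The 13 split into 4 higher in L-LY29, 7 lower and 2 not passing, where 73.8% of all genes were called, 27.1% higher and 46.6% lower. Amigo1, a membrane protein of Kv2 channels, showed the largest difference of the list, with 4.79, 5.16 and 5.21 in L-LY29 against 9.52 and 9.56 in H-LY29 (difference -4.49, adjusted p = 4.8e-05, lower on 3 of 3 tested probe sets). Adam23, which lies with Kv1 channels at juxtaparanodes, was lower on both tested probe sets (difference -2.69), and its relative Adam22 did not pass (-0.16). The Kv2 pore genes themselves are not analysed here. Cntnap2 and Cntn2, the adhesion pair that gathers Kv1 channels at juxtaparanodes, were also lower, by differences of -1.51 and -1.46, and were named, like Adam22 and Abcc8, after their values were seen. These lower partners stood beside Kcna1 probe sets that went both ways.

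The dystrophin complex anchors Kir4.1 in astrocyte endfeet, and its members split. Dmd (dystrophin) and Dag1 (dystroglycan) were lower, by differences of -2.18 and -1.52, and all of their tested probe sets were called lower. Dtna (dystrobrevin) was higher by 1.95, and all 6 of its tested probe sets were called higher. Dag1 was named after its value was seen. Kcnj10, the channel that this complex holds, differed by 0.15. Of the remaining partners, Dpp6, which speeds Kv4 channels, was higher by 0.82 (adjusted p = 0.019), as were Kcnip3 and Kcnip1, and Hcn2, a related cation channel that opens on hyperpolarisation, was higher by 2.32 (9.35, 9.23 and 9.30 in L-LY29, 7.08 and 6.86 in H-LY29).

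The other cell types of the nerve and its surroundings were read from marker lists in the same way. The 6 oligodendrocyte precursor markers held 1 higher gene, 3 lower and 2 not passing, and their list mean was 6.87 to 7.18 in L-LY29, against 7.61 to 8.13 in H-LY29. The 7 endothelial markers held 4 higher genes, 1 lower and 2 not passing (7.20 to 7.61 in L-LY29, 6.67 to 6.69 in H-LY29). The 8 tested neuron and retina markers held 5 higher genes, 2 lower and 1 not passing (6.48 to 6.60 in L-LY29, 6.03 to 6.11 in H-LY29), and the photoreceptor genes Gnat1 and Pde6b were near background. The 4 tested striated muscle markers held 2 higher genes, 1 lower and 1 not passing (4.63 to 4.81 in L-LY29, 4.46 to 4.67 in H-LY29), and the myosins Myh1 and Myh4 were near background. The part of these cells in any channel difference was not tested.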

How the data were processed

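RNA of cultured mouse optic nerves was hybridised to 5 Affymetrix mouse arrays (L-LY29, 3 arrays; H-LY29, 2 arrays), grouped by their labels. The methods of the authors name GeneSpring with MAS-5 normalisation. The deposited table holds log2 signals. Its scaling target is not stated in those methods, and whether MAS-5 made these values was not settled. Values were used as deposited. In the annotation given, 34945 of 45101 probe sets carry 1 gene name, 945 carry several and 9211 carry none. Those naming several genes or none and the 64 control probe sets were left out of the tests. A probe set had to reach the 40th percentile (4.77) in its 5-array mean, and the brightest probe set stood for its gene. The two-sided comparison of doses used lmFit and trended eBayes from limma 3.58.1 (R 4.3.3), with Benjamini-Hochberg adjustment over all 12935 genes, or over all 23456 probe sets past the filter, and called at an adjusted p under 0.05. Intervals are 95% intervals of that fit. The fit was tested on simulated data first.

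The sources used here do not tell which nerves and mice went to which array. P-values therefore measure only the spread between arrays, and the small number of arrays limits the precision. The channel genes, gene lists, tests and the rule for named genes were chosen with earlier results of these data known. The rule names members of a list of channels of glia, vessels and axons (31 of 34 on the array, 22 tested), per class and direction up to 3 called genes by size of difference, and genes with probe sets called in both directions. Genes that it does not name but the text does (Kcnip1, Kcnh1, Kcnh3, Kcnj4, Kcnj13, Kcnk3, Kcne3 and others) were added after their values were seen.

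Alternatives were no filter, a filter at the 60th percentile, a floor at the near-background level, quantile normalization, equal array medians, a gene's mean over its probe sets, its second brightest probe set, only probe sets ending in a digit and _at, no intensity trend, a replicate block, an adjusted p under 0.01, and each array left out in turn. Only probe sets without shared values were added as an alternative after seeing the data. The mean and the second brightest were taken only among a gene's probe sets past the filter.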

Additional observations from a re-analysis of the deposited data

How the results depend on the processing

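Of 468 combinations of a named, tested channel gene and an alternative, 408 kept direction and side of the threshold, 33 lost the call, 15 gained it and 12 reversed. Of the 24 called named genes, 14 kept their call wherever they were tested. The others were Kcna1, Kcna3, Kcna6, Kcnip3, Kcnj6, Kcnk1, Kcnk5, Kcnk13, Kcnma1 and Kcns3. Among the 14, Kcna4, Kcna7, Kcnj8, Kcnj12, Kcnj16, Kcnk7, Kcnmb2 and Kcnq1 passed the filter only through the dose where they are high. Their kept calls are no support for a direction. Not every gene was tested in every setting, and Kcnj16 was not tested after quantile normalization. Kcnd3, Kcnj11, Kcnk2, Kcne4 and Kcnmb4 each had only 1 probe set past the filter. For them the mean could not change the difference, and no second brightest set was tested. Their kept calls thus do not cover disagreement between probe sets, and the other Kcnd3 sets, given above, did not show its difference. The 408 kept combinations include such fixed cases. The 15 higher channel genes became 28 without a filter, 4 at the 60th percentile, 4 with the second brightest probe set and 2 without shared values, and 9 to 19 with an array left out. The 12 lower genes became 5 at the 60th percentile, 4 with the second brightest probe set and 2 without shared values, and 8 to 11 with an array left out. These settings test other numbers of genes, 81 without a filter, 14 at the 60th percentile, 11 with the second brightest probe set and 5 without shared values. In that order, 56.8%, 64.3%, 72.7% and 80% of the channel genes tested were called. Among all genes tested, the shares were 64.7%, 76.9%, 73.2% and 79.8%. The 22 higher probe sets became 54 without a filter, 5 at the 60th percentile and 3 without shared values (13 to 26 with an array left out), and the 16 lower ones 29, 6 and 3 (12 to 14). The 11 called partners became 6 at the 60th percentile and 4 without shared values (8 to 10 with an array left out). The median difference of 0.15 became -0.065 at the 60th percentile, 0.38 after quantile normalization, 0.36 with equal array medians and 0.056 with only probe sets ending in a digit and _at, and 0.025 to 0.23 with an array left out. Genes near background numbered 28 with the 40th percentile as the level.

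Kcnma1 reversed to -3.40 with the floor and -1.50 with the mean of its 2 probe sets past the filter. It reversed to -4.08 with its second brightest set or only sets ending in a digit and _at. With an array left out, Kcnma1 spanned -3.99 to 1.25. Kcna1 became -0.44 with its second brightest set. Kcna6 became 0.16 after quantile normalization and 0.11 with its second brightest set, and Kcnk13 became 0.29 after quantile normalization. Kcnab2, not called before, became 0.29 with the mean of its probe sets and 0.66 with its second brightest. These switches follow from which probe set stands for the gene, except under quantile normalization, where the cause was not tested.

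With the replicate block, 11 of the 44 channel genes tested were higher and 8 lower, so that 43.2% were called in place of 61.4%. Over all genes, 8359 were called against 9542 without the block, or 64.6% in place of 73.8%. Deviations from the dose means of H-LY29 replicate 1 correlated at 0.0089 with those of L-LY29 replicate 1 and at -0.02 with those of L-LY29 replicate 2. The deviations of the 2 H-LY29 arrays mirror each other. The check therefore cannot settle whether arrays of the same number were paired. With 3 arrays against 2, small differences such as those of Kcnj10 and Kcnq3 were not resolved, signals near 4.14 bound a level only from above, and shared values narrow the spread between replicates.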
